A study of Sus scrofa with 5 samples.

Results

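Ovarian follicles respond to estrogen, progesterone, prolactin and growth hormone through receptors of different kinds. The transcripts of 7 genes of these receptor systems, among 30822 genes listed, were examined in large and small follicles. These came from pigs of the Indian Ghoongroo, a breed of domestic pig (Sus scrofa), all labelled female. The genes were taken by symbol and each symbol matched 1 row: PGR, PGRMC1 and PGRMC2 for progesterone, ESR1 and ESR2 for estrogen, GHR for growth hormone and PRLR for prolactin. Large follicles gave 3 libraries and small follicles 2, with total RNA taken from the follicles and no treatment beside follicle size in the labels. The replicates are biological per the labels, but the sources used here do not give follicle diameter, cycle stage, the animals' age or the number of animals or follicles behind a library. The p-values therefore measure the spread between these 5 libraries and nothing wider.

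The nuclear receptors ESR1, ESR2 and PGR are transcription factors that bind their hormone and then DNA. In the mammalian ovary ESR2 is best known from granulosa cells, the hormone-producing cells that line the follicle, and ESR1 from theca and stromal cells around them. PGR is known from mice as a gene that the ovulatory gonadotropin surge switches on in granulosa cells and that is needed for follicle rupture. PGRMC1 and PGRMC2 are heme-binding membrane proteins that are linked to progesterone responses without being nuclear receptors. GHR and PRLR are cytokine receptors that signal through the kinase JAK2 and the STAT5 proteins, and prolactin is known in rodents for its support of the corpus luteum.

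The libraries held 9523739 to 11507527 fragments as worked back from the deposited values, and 11784 to 13064 genes per library had at least 1 FPKM (fragments scaled to gene length and library size, a level per length). Across the 13087 genes tested, the root mean square difference in log2(FPKM + 1) between libraries was 0.417 to 0.577 within a group and 0.491 to 0.775 between groups, so the ranges overlapped. The granulosa genes INHA (4474, 11739 and 6453 FPKM in large, 2876 and 3515 FPKM in small follicles) and FSHR and the theca genes CYP17A1 and INSL3 were present in every library. In such bulk samples, fewer cells of a type and less RNA per cell cannot be told apart.

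The receptors covered a wide range of levels, and PGRMC1 led in both follicle sizes. By FPKM the order was PGRMC1, PGRMC2, ESR1, GHR, PGR, ESR2 and PRLR in all 5 libraries. PGRMC1 was 5.68- to 6.80-fold above PGRMC2 in large follicles and 4.76- and 4.78-fold above it in small ones. PGRMC2 was 1.53- to 2.17-fold above ESR1 over the 5 libraries. The step between ESR1 and GHR was 4.07- to 8.38-fold in large follicles, against 2.04- and 3.14-fold in small follicles. GHR stood 1.28-fold above PGR in large follicle replicate 2, the narrowest step there, and up to 4.25-fold above it in small follicle replicate 1. ESR2 and PRLR came last, and their counting intervals overlapped in every library, so their order is not resolved.

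PGRMC1 made up 78.3% ± 1.15 of the summed FPKM of the 7 genes in large follicles and 72.8% ± 0.672 in small follicles (SD, n = 3 and 2). Its share was 79.7%, 77.6% and 77.7% in large follicles and 72.3% and 73.2% in small ones. GHR took 1.42%, 0.970% and 1.55% of the sum in large follicles, against 3.75% and 2.42% in small follicles. ESR1 took 6.93% ± 1.04 in large and 7.63% ± 0.0516 in small follicles. The shares did not overlap between the groups for any of the 7 genes except ESR1, with PGRMC1 higher and the others lower in large follicles. Shares of 1 sum depend on each other, so a higher PGRMC1 share by itself lowers the others, and they were not tested. In FPKM only GHR and PRLR did not overlap between the groups. Of all genes tested, which leave out PRLR for its low level, 26.1% did not overlap. Without the membrane proteins PGRMC1 and PGRMC2, ESR1 was the leading receptor in every library.

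**Figure D1:**
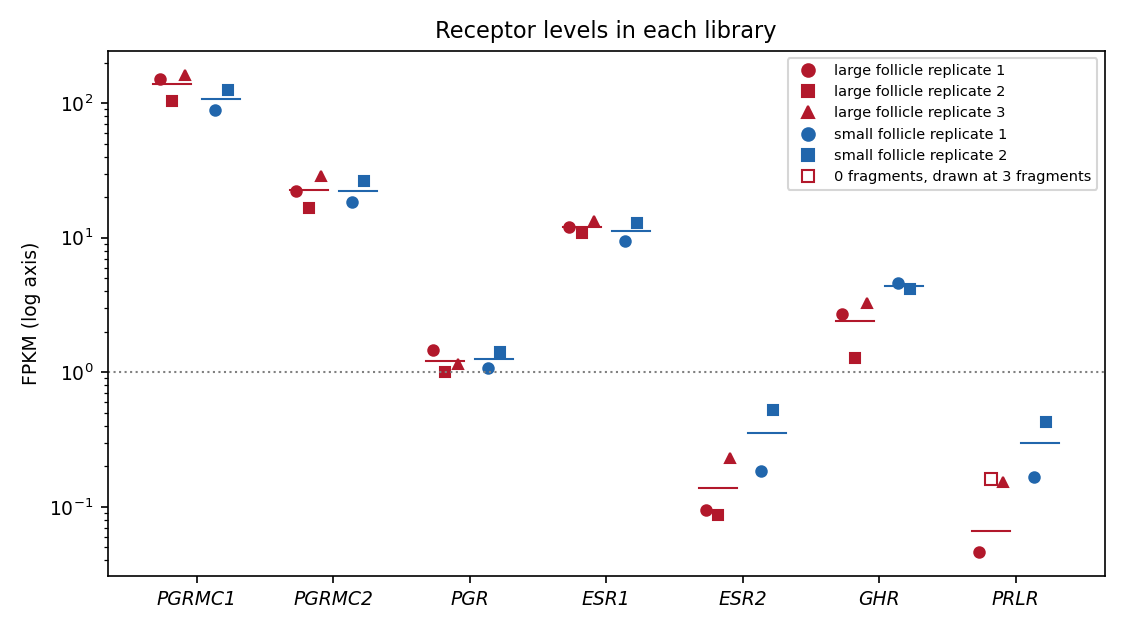
FPKM of each receptor gene (log axis) in 3 large (red, left) and 2 small (blue, right) follicle libraries, with the group mean as a bar and a dotted line at 1 FPKM; the open square is the library with 0 PRLR fragments, drawn at the level of 3 fragments. PGRMC1 lies near 100 FPKM in both sizes, ESR2 and PRLR lie below 1 FPKM, and the GHR values of large follicles all lie below those of small follicles.

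None of the receptors that could be tested changed between follicle sizes past the threshold. Genes with at least 1 FPKM in at least 2 libraries entered the comparison, and 5 of the 7 receptors did so: PGRMC1, PGRMC2, ESR1, GHR and PGR. By limma on log2(FPKM + 1), with Benjamini-Hochberg adjustment over all 13087 genes, 0 of these 5 were called at an adjusted p under 0.05, and 0.978% of all genes were. At an unadjusted p under 0.05 there were also 0 of 5, against 10.4% of all genes. With limma voom on recovered fragments 1 of 5 had an unadjusted p under 0.05, and 0 were called after adjustment. The share of all genes at that unadjusted level was not worked out for voom. The groups did not overlap for 2 of the 7 genes, GHR and PRLR, both lower in large follicles. Only GHR of these is among the genes tested. Of the genes tested 26.1% did not overlap, and 15.2% did so with lower values in large follicles. ESR2 and PRLR stayed under the filter and had no adjusted p of their own in this comparison.

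The progesterone side was led by the membrane components, and the nuclear receptor was low. PGRMC1 (gene 396946, Sscrofa11.1 chromosome X, 97735402 to 97743424, plus strand, protein coding), a heme-binding protein of the endoplasmic reticulum known for effects on granulosa cell survival, had 151, 103 and 163 FPKM in large follicles, against 88.5 and 125 FPKM in small follicles. Large follicle replicate 2 fell between the small libraries, so the groups overlapped. The log2 fold change, large minus small, was 0.37 (SE 0.26, 95% interval -0.21 to 0.95, limma adjusted p = 0.721). PGRMC1 ranked at the 96.4th to 98.1st percentile of the genes above 0 in each library.

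PGRMC2 (gene 100048965, chromosome 8, 96692823 to 96710218, plus strand, protein coding), a close relative of PGRMC1 known as a carrier of heme, had 22.2, 16.6 and 28.7 FPKM in large follicles and 18.5 and 26.3 FPKM in small follicles. Large follicles held both the lowest and the highest value. The group means were 22.5 ± 6.08 and 22.4 ± 5.48 FPKM in large and small follicles (SD, n = 3 and 2), and the log2 fold change was -0.0070 (SE 0.28, 95% interval -0.63 to 0.61, limma adjusted p = 0.997). A noncoding RNA, LOC102166663, is annotated on the opposite strand of the locus. It was listed at 0 FPKM in all libraries except small follicle replicate 2, where it had 0.337 FPKM.

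Within a library, PGRMC1 stood higher over PGRMC2 in large follicles. The log2 ratio of PGRMC1 to PGRMC2 was 2.77, 2.64 and 2.51 in large follicles and 2.26 and 2.25 in small follicles. The values did not overlap, and the difference of the means was 0.38. The exact two-sided permutation test over samples gave p = 0.2, which is the smallest p that 3 against 2 libraries allow, and p = 0.3 after adjustment over the 3 ratios compared.

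PGR (gene 396805, chromosome 9, 32035684 to 32129776, minus strand, protein coding), the nuclear progesterone receptor, had 1.47, 1.01 and 1.16 FPKM in large follicles and 1.08 and 1.41 FPKM in small follicles. These values interleaved and rested on 74, 44 and 53 fragments in large and 45 and 62 fragments in small libraries. The log2 fold change was -0.024 (SE 0.25, 95% interval -0.59 to 0.55, limma adjusted p = 0.989). PGRMC1 exceeded PGR by 115 ± 22.1 fold in large and 85.3 ± 4.76 fold in small follicles (SD, n = 3 and 2). PGR ranked at the 38.8th to 44.1st percentile of genes above 0.

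On the estrogen side, ESR1 transcripts far outnumbered those of ESR2 in every library. ESR1 (gene 397435, chromosome 1, 14217032 to 14604906, minus strand, protein coding) had 12.04, 10.8 and 13.2 FPKM in large follicles and 9.38 and 13.0 FPKM in small follicles. The large values lay within or just above the range of the small ones. The log2 fold change was 0.11 (SE 0.25, 95% interval -0.46 to 0.67, limma adjusted p = 0.938). Among large follicles ESR1 was the steadiest of the 7 genes, with a coefficient of variation of 10.1%.

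ESR2 (gene 396697, chromosome 1, 193823666 to 193907330, plus strand, protein coding), the estrogen receptor known from granulosa cells, had 0.0949, 0.0874 and 0.230 FPKM in large follicles, against 0.183 and 0.522 FPKM in small follicles. Small follicle replicate 2 was highest, and large follicle replicate 3 lay above small follicle replicate 1. The values came from 5, 4 and 11 fragments in large and 8 and 24 fragments in small libraries. Exact Poisson 95% intervals, which cover counting error only, reached from 0.0308 to 0.222 FPKM in large follicle replicate 1 and from 0.335 to 0.777 FPKM in small follicle replicate 2. For small follicle replicate 1 the interval was 0.0792 to 0.362 FPKM, which overlaps those of all 3 large libraries. An exact two-sided permutation test of log2(FPKM + 1) over samples gave p = 0.4, where 0.2 is the smallest possible. The value of small follicle replicate 2 lay above the intervals of all 3 large libraries. Its own interval still overlapped that of large follicle replicate 3, which ended at 0.411 FPKM. The value of small follicle replicate 1 lay within the intervals of all 3 large libraries. A higher ESR2 level in small follicles therefore rests mostly on replicate 2 of that group. With no filter on low values ESR2 had an unadjusted limma p of 0.0955 and an adjusted p of 0.624.

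ESR1 exceeded ESR2 by 126.9, 123.4 and 57.5 fold in the large libraries and by 51.1 and 24.9 fold in the small libraries. The log2 ratio of ESR2 to ESR1 averaged -6.59 ± 0.65 in large and -5.16 ± 0.74 in small follicles (SD, n = 3 and 2), with no overlap and a difference of -1.44. The exact two-sided permutation p was 0.2, the smallest possible, and 0.3 after adjustment over the 3 ratios. With 1 FPKM added to both genes the difference was -0.35. Each ratio has the few ESR2 fragments in it. FOXL2, a granulosa transcription factor, had 11.06, 25.9 and 19.5 FPKM in large and 26.0 and 42.3 FPKM in small follicles (limma adjusted p = 0.421). It was among the 10 of 11 tested granulosa markers with lower values in large follicles, where 60.1% of all genes had them. INHA had higher values in large follicles. A relation of these markers to the ESR2 level was not tested.

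**Figure D2:**
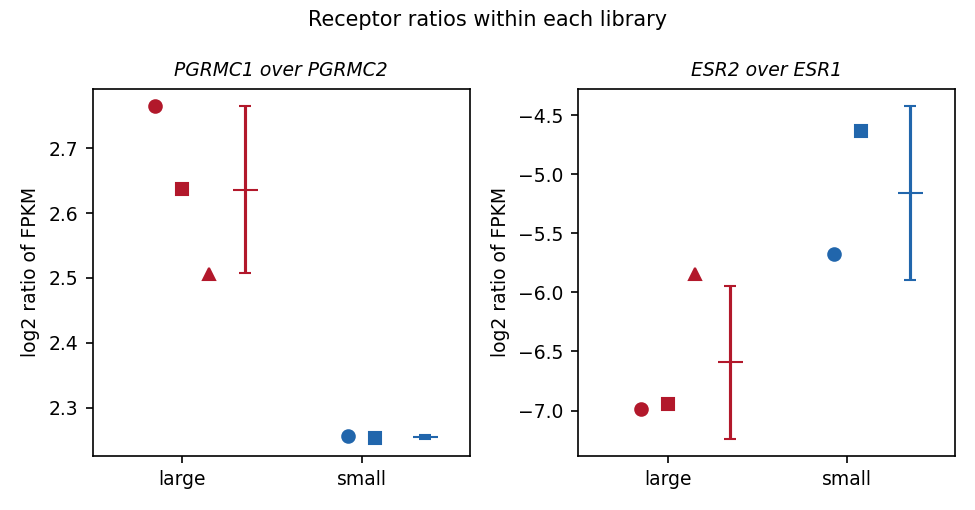
Log2 ratio of FPKM within each library for PGRMC1 over PGRMC2 (left) and ESR2 over ESR1 (right), in large (red) and small (blue) follicles; the bars beside the points show the mean ± SD, with n = 3 and 2, and the marker shape gives the replicate number. The ratio of PGRMC1 to PGRMC2 is 2.51 or more in large and 2.26 or less in small follicles, and the ratio of ESR2 to ESR1 is -5.85 or less in large and -5.68 or more in small follicles.

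GHR had the largest difference among the tested receptors, and it did not pass the test. GHR (gene 397488, chromosome 16, 27126300 to 27422618, plus strand, protein coding), through which growth hormone acts and induces IGF1 in liver, had 2.70, 1.29 and 3.25 FPKM in large follicles, against 4.59 and 4.14 FPKM in small follicles. All 3 large values lay below both small values, and large follicle replicate 2 was farthest below. The means were 2.41 ± 1.01 FPKM in large and 4.36 ± 0.322 FPKM in small follicles (SD, n = 3 and 2), or 1.81-fold higher in small follicles. The log2 fold change was -0.70 (SE 0.33, 95% interval -1.45 to 0.047, limma adjusted p = 0.522, unadjusted p = 0.0631). It was -0.44 (limma adjusted p = 0.769) when large follicle replicate 2 was left out and -0.88 (limma adjusted p = 0.405) when replicate 3 of that group was.

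PRLR (gene 414916, chromosome 16, 20637568 to 20655881, minus strand, protein coding), the prolactin receptor, was at the edge of detection. Large follicles had 1, 0 and 3 PRLR fragments and small follicles 3 and 8. In FPKM this was 0.0463, 0 and 0.153 in large follicles, against 0.168 and 0.425 in small follicles. A count of 0 in large follicle replicate 2 allows up to 3 fragments, or 0.160 FPKM. The exact Poisson 95% interval of that library ended at 0.197 FPKM, above the value of small follicle replicate 1, and the intervals of all 5 libraries overlapped. The groups did not overlap in FPKM, although large follicle replicate 3 and small follicle replicate 1 held the same 3 fragments. The exact two-sided permutation p was 0.2, the smallest possible. With no filter on low values PRLR had an unadjusted limma p of 0.0366 and an adjusted p of 0.473. The listed PRLR model is 1875 bases long, and fragments outside it would not be counted.

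GHR exceeded PRLR by 58.2- and 21.2-fold in large follicle replicates 1 and 3, and by 27.3- and 9.73-fold in small follicles. In large follicle replicate 2 no ratio exists. The corresponding log2 ratios of PRLR to GHR were -5.86 and -4.41 in these large and -4.77 and -3.28 in the small libraries, on average lower in large follicles. Adding 1 FPKM to both genes turned this direction: the log2 ratio then averaged -1.63 ± 0.38 in large and -2.05 ± 0.29 in small follicles, with an exact two-sided permutation p = 0.4 (n = 3 and 2). No direction is therefore given for this pair. The ligands PRL and GH1 were listed at 0 FPKM in all libraries.

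Much of the spread among the receptors was shared within a library. Large follicle replicate 2 was the lowest of the large libraries for 7 of 7 receptors, and small follicle replicate 1 was the lower small library for 6 of 7, GHR being the exception. Median-of-ratios factors over all genes, which compare a library's typical FPKM with the others, were 0.833 for large follicle replicate 2 and 0.909 for small follicle replicate 1, against 1.02, 1.11 and 1.21 for large follicle replicates 1 and 3 and small follicle replicate 2. After division by these factors, the groups of 4 of the 7 receptors did not overlap. These 4 include PRLR, which was under the filter for testing. Of all genes tested 29.6% did not overlap. PGRMC1 then had 149, 124 and 147 scaled FPKM in large and 97.3 and 103 in small follicles. ESR1 had 11.9, 13.0 and 11.9 scaled FPKM in large and 10.3 and 10.7 in small follicles. GHR and PRLR kept lower values in large follicles, with GHR at 2.66, 1.55 and 2.92 against 5.05 and 3.42 scaled FPKM.

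On that scale 0 of 5 receptors were called by limma, against 1.54% of all genes. The log2 fold change was 0.47 (SE 0.24, limma adjusted p = 0.472) for PGRMC1 and 0.20 (SE 0.19, limma adjusted p = 0.722) for ESR1. For GHR it was -0.64 (SE 0.26, limma adjusted p = 0.334, unadjusted p = 0.0347). PGRMC2 and PGR turned from -0.0070 and -0.024 to 0.085 and 0.031 on that scale. Printing these scaled values per library was decided after the data had been seen.

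**Figure D3:**
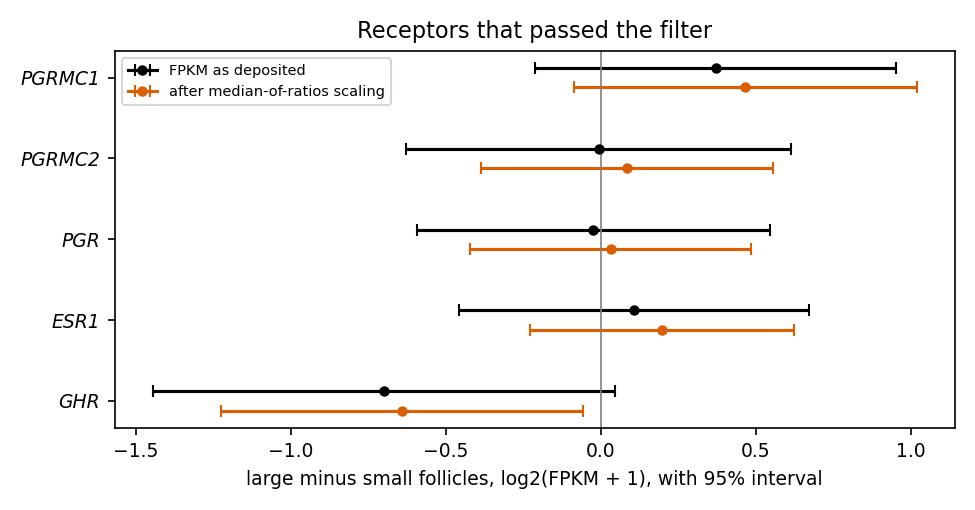
Log2 fold change, large minus small follicles, of the 5 receptors that passed the filter, with limma 95% intervals, from the deposited FPKM (black) and after median-of-ratios scaling (orange). The intervals of PGRMC1, PGRMC2, PGR and ESR1 include 0 on both scales; that of GHR includes 0 for the deposited values and ends at -0.058 after scaling.

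Genes with a like profile were sought for receptors whose log2(FPKM + 1) spanned at least 1 over the 5 libraries. Of the 5 receptors tested GHR alone did, with a span of 1.29. The 3 nearest profiles by root mean square difference of mean-centred log2(FPKM + 1) over 5 libraries were those of RFTN2, a raftlin of membrane microdomains, SCD5, a stearoyl-CoA desaturase, and GRIN3B, a glutamate receptor subunit. Their distances were 0.065, 0.077 and 0.10. RFTN2 had 10.9, 6.997 and 14.7 FPKM in large and 18.3 and 16.1 FPKM in small follicles, with the same order of groups and the same lowest library as GHR. This likeness rests on 5 points and is a description.

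Relatives and partners of the receptors likewise gave no call. In a list of other steroid receptors and partners of PGRMC1, 11 of 16 genes were tested and 0 were called, where 0.978% of all genes were. In large follicles 4 of them had higher and 7 lower values, and over all genes 60.1% had lower values. GPER1, a membrane receptor for estrogen, had 1.70, 1.66 and 1.25 FPKM in large and 2.01 and 1.95 FPKM in small follicles. The membrane progestin receptors PAQR8 and PAQR7 differed by -0.45 ± 0.27 and -0.45 ± 0.30 on the log2 scale (± SE; limma adjusted p = 0.660 and 0.702), and PAQR7 was at -0.20 without small follicle replicate 1. NENF, a secreted relative of PGRMC1, had 89.9, 53.8 and 65.6 FPKM in large and 50.9 and 51.6 FPKM in small follicles (limma adjusted p = 0.655); its log2 fold change was 0.41, and 0.21 without large follicle replicate 1.

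Coregulators and chaperones of the nuclear receptors had mostly lower values in large follicles, without a call. Over all genes tested 0.978% were called. Of 19 tested coregulators 16 had lower values, where 60.1% of all genes tested did. Their median log2 fold change was -0.46, beside -0.084 for all genes tested. NCOA3, a coactivator, had 0.435, 1.94 and 2.01 FPKM in large and 2.60 and 3.97 FPKM in small follicles (limma adjusted p = 0.467). The coactivator NCOA4 differed by -0.66 ± 0.28 on the log2 scale (± SE; limma adjusted p = 0.443). Without large follicle replicate 1 the log2 fold change of NCOA3 was -0.51, against -0.86 with it, and that of NCOA4 was -0.39. Of 14 chaperones 13 had lower values, with a median of -0.33. HSP90AA1, the inducible form of the chaperone that holds unliganded steroid receptors, had 249, 310 and 335 FPKM in large and 396 and 453 FPKM in small follicles (limma adjusted p = 0.472). DNAJB1 and ST13, which work with HSP70, differed by -0.70 ± 0.24 and -0.49 ± 0.20 on the log2 scale (± SE; limma adjusted p = 0.317 and 0.419). DNAJB1 was at -1.04 and -0.35 without small follicle replicates 1 and 2 in turn.

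The signalling chain of GHR and PRLR was expressed in both sizes. Of 21 tested genes of JAK-STAT signalling, 19 had lower and 2 higher values in large follicles, with a median of -0.24 and 0 calls. Over all genes tested 60.1% had lower values, with a median of -0.084, and 0.978% were called. STAT5B, which carries the growth hormone signal, had 13.1, 13.1 and 15.8 FPKM in large and 16.7 and 21.3 FPKM in small follicles (limma adjusted p = 0.631). STAT3 differed by -0.995 ± 0.40 on the log2 scale (± SE; limma adjusted p = 0.417), and by -0.54 (limma adjusted p = 0.773) without large follicle replicate 1. STAT5B was at -0.41, and at -0.25 without small follicle replicate 2. Of 10 feedback inhibitors 9 had lower values, with a median of -0.21 and 0 calls. CISH, induced by STAT5, had 6.59, 8.11 and 8.75 FPKM in large and 10.8 and 11.2 FPKM in small follicles (limma adjusted p = 0.616). SOCS7 and SOCS4, 2 further inhibitors, differed by -0.40 ± 0.32 and -0.49 ± 0.40 on the log2 scale (± SE; limma adjusted p = 0.771 and 0.773). With libraries left out in turn they ranged from -0.70 to -0.096 and from -0.87 to -0.10, both nearest to 0 without small follicle replicate 2. IGF1, the growth factor that growth hormone induces in liver, had the opposite order to GHR, at 15.4, 17.7 and 19.9 FPKM in large and 12.7 and 12.2 FPKM in small follicles (log2 fold change 0.47, SE 0.23, limma adjusted p = 0.543). IGFALS, a plasma carrier of IGFs, differed by -0.26 ± 0.35 on the log2 scale (limma adjusted p = 0.884).

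Among known estrogen targets, mostly from human breast cells, SLC9A3R1 was called lower in large follicles. This scaffold protein of the cell membrane had 18.4, 18.5 and 15.1 FPKM in large follicles, against 40.2 and 39.3 FPKM in small follicles. The groups lay far apart relative to their spread, and the log2 fold change was -1.16 (SE 0.21) at an adjusted p of 0.0398 by limma. The call was lost in 11 of 15 alternatives, with the log2 fold change between -1.28 and -1.01 throughout. Without large follicle replicates 1 and 3 in turn the limma adjusted p was 0.1097 and 0.0567, and without small follicle replicates 1 and 2 it was 0.186 and 0.188. It was 0.316 with the replicate number as a block. Of the 14 tested targets, 1 was called lower and 0 higher, where 0.978% of all genes were called. Lower values were found for 9, where 60.1% of all genes had them, with a median of -0.15. CTSD, a lysosomal protease, had 357, 512 and 338 FPKM in large and 240.1 and 298 FPKM in small follicles (limma adjusted p = 0.492). AREG, an epidermal growth factor-like ligand, had 1.29, 0.0828 and 0.0791 FPKM in large and 1.48 and 1.81 FPKM in small follicles (limma adjusted p = 0.370).

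Of the genes known mostly from mice as progesterone receptor targets at ovulation, 12 of 20 were tested. They gave 0 calls, where 0.978% of all genes were called. In large follicles 8 had lower and 4 higher values, with a median of -0.22, where 60.1% of all genes had lower values. EPAS1, a hypoxia-responsive transcription factor, had 10.1, 24.2 and 25.7 FPKM in large and 49.5 and 68.2 FPKM in small follicles (log2 fold change -1.60, SE 0.37, limma adjusted p = 0.0915). HIF1A, its relative, had 11.12, 41.9 and 44.4 FPKM in large and 50.9 and 83.5 FPKM in small follicles (limma adjusted p = 0.450). Large follicle replicate 1 was far below the other large libraries for both. Without it the log2 fold change was -1.19 for EPAS1 (limma adjusted p = 0.123) and -0.59 for HIF1A (limma adjusted p = 0.755), against -1.21 for HIF1A with it. EPAS1 was not called in 11 of 15 alternatives, with a limma adjusted p of up to 0.301. It passed limma when large follicle replicate 2 (adjusted p = 0.00754) or replicate 3 (adjusted p = 0.00641) was left out, and with libraries scaled to a common FPKM sum (limma adjusted p = 0.0366). It also passed with the replicate block, where the limma adjusted p was 0.000677 for EPAS1 and 0.00539 for HIF1A. That fit supposes a pairing that the labels do not state, and large follicle replicate 3 has no small partner in it. Its p-values lean mostly on variance borrowed from other genes.

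**Figure D4:**
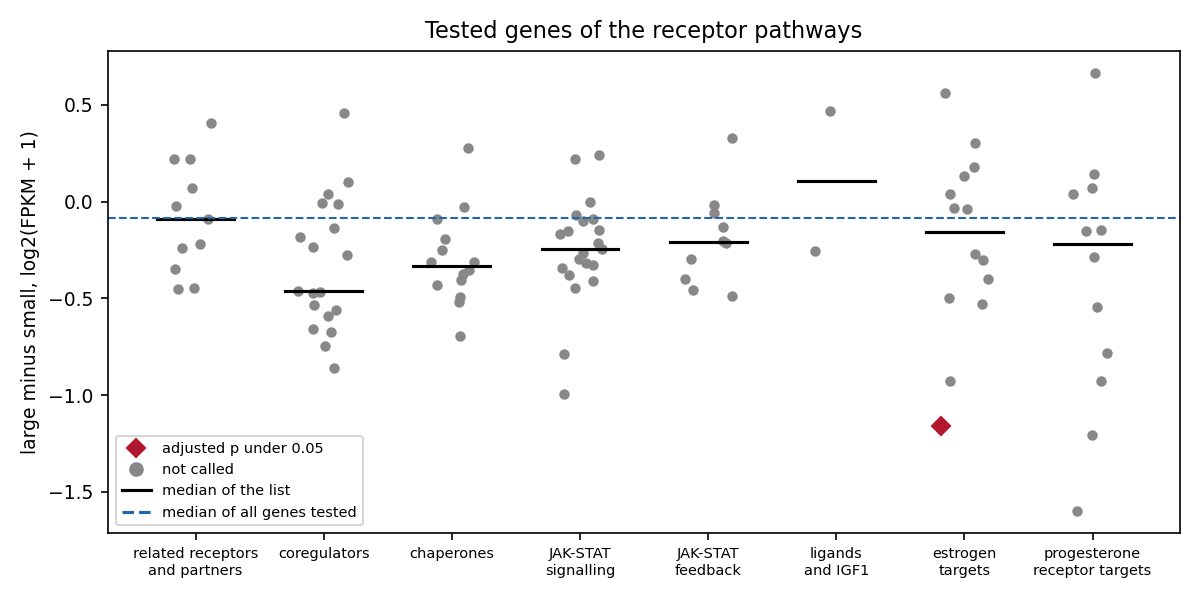
Log2 fold change, large minus small follicles, of each tested gene in 8 lists around the receptors; red diamonds are genes called at an adjusted p under 0.05, black lines the median of each list, and the dashed line the median of all genes tested, -0.084. SLC9A3R1 at -1.16 is the gene called, and the coregulators have the lowest median at -0.46.

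Markers of 9 cell types were set beside the receptors, and their part in the receptor values was not tested. By limma 1 of 11 granulosa markers was called lower in large follicles (INHBB, adjusted p = 0.0237) and 1 of 10 theca markers higher (CYP17A1, adjusted p = 0.0121). The other 7 lists had 0 calls, and 0.978% of all genes were called. Of the granulosa markers 10 had lower values in large follicles, where 60.1% of all genes did, although their summed level was 5088 to 12437 FPKM in large and 3991 to 5315 FPKM in small follicles, most of it from INHA. FSHR, the receptor of follicle-stimulating hormone, had 5.47, 1.20 and 8.06 FPKM in large and 15.5 and 16.6 FPKM in small follicles. Its library order within large follicles was that of every receptor except PGR, and also that of the median-of-ratios factors. Of the theca markers 6 had higher values, with sums of 1901 to 3958 FPKM in large and 802 to 1140.4 FPKM in small follicles. In these sums CYP17A1 alone had 726, 2451 and 1043 FPKM in large and 145 and 147 FPKM in small follicles. The other 4 theca markers, GLI1 and HHIP among them, had lower values in large follicles. Leukocyte markers had higher values in 9 of 9, with sums of 134 to 199.7 FPKM in large and 87.8 to 96.8 FPKM in small follicles, and red cell markers in 4 of 4, with sums of 1006 to 1680.2 and 234 to 703 FPKM. Endothelial sums were 275 to 296 FPKM in large and 251 to 259 FPKM in small follicles, with 6 of 8 higher. Higher values were also found for 6 of 8 stromal, 4 of 6 smooth muscle and 4 of 5 epithelial markers. Their sums were 4767 to 6629, 3716 to 4507 and 38.6 to 45.3 FPKM in large follicles, and 4548 to 4750, 3135 to 3150 and 39.16 to 39.19 FPKM in small follicles. Most of the epithelial sum came from WT1, with 20.7 to 29.2 FPKM in large and 20.1 and 24.9 FPKM in small follicles. KRT8 was the tested epithelial marker with lower values in large follicles. The oocyte markers summed to 47.0 to 64.8 FPKM in large and 27.5 to 39.5 FPKM in small follicles, with 4 of 6 higher. No marker found in the files was at 0 in all libraries.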

How the data were processed

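The authors deposited FPKM values per gene, 1 file per library, from a stranded mRNA kit per the labels' protocols. Build Sscrofa11.1 and the tools HISAT2 2.0.5, featureCounts 1.5.0-p3, StringTie 1.3.3, Trimmomatic 0.38 and FastQC 0.11.4 stand in the submitters' processing notes, without their roles. Whether counting used the strand is not stated there. Groups and replicate numbers came from the sample titles. Library totals and whole fragments were worked back from the steps of the FPKM values, at the listed gene length for 49.8% of genes above 0 (tolerance 0.01 of a fragment) and otherwise at the shortest length that gave whole fragments. For ESR1 that length was 5159 of 17231 listed bases and for GHR 5443 of 22731, so their fragment counts could be multiples of those used. A count of 0 allows up to 3 fragments, and floors and intervals cover counting error only.

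Genes with at least 1 FPKM in at least 2 libraries were tested with limma 3.58.1 in R 4.3.3 (mean-variance trend, log2(FPKM + 1), group as the only term, Benjamini-Hochberg adjustment); the pseudocount understates changes of low genes. The script was tested on simulated data. Genes beside the receptors were named by a rule: called members of each list, filled up to the 3 smallest p values, plus the nearest profiles; GPER1 and the markers with values were chosen after their values were seen. The receptors and lists were chosen with earlier results of these data known. Symbols absent from the files (CYB5D2, MT1, MT2A, BEX2, MSLN, OOSP2) were not analysed here. Some genes that the rule names are not reported here. Alternatives covered pseudocounts of 0.1 and 5, other filters, scalings and variance models, a replicate block, voom, and each library left out.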

Additional observations from a re-analysis of the deposited data

How the results depend on the processing

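None of the tested receptors was called by limma in any of the 15 alternatives, and PGRMC1 and GHR kept their direction in all that tested them, with log2 fold changes of 0.12 to 0.62 and -0.92 to -0.35. The signs of the receptors near 0 turned. PGRMC2 was at 0.085 after median-of-ratios scaling, 0.037 after quantile normalization and 0.090 with voom, and -0.25 to 0.23 with libraries left out. PGR was at 0.031, 0.043 and 0.053 in the same fits, and -0.13 to 0.083 with libraries left out. ESR1 was at -0.0095 with libraries scaled to a common FPKM sum, and -0.11 to 0.32 with libraries left out. IGFALS ranged from -0.61 to 0.10 with libraries left out. The cause was not tested.

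The number of genes called, 128, was 32 with no filter, 41 at a mean FPKM of at least 5, 201 with quantile normalization and 202 with median-of-ratios scaling. It was 29, 284 and 207 when large follicle replicates 1, 2 and 3 were left out in turn, and 74 and 61 when small follicle replicates 1 and 2 were. A common FPKM sum moved the median of all genes from -0.084 to -0.19 and called 66 higher and 86 lower, against 70 and 58. The replicate block called 157 genes and 0 receptors. The sources used here do not state that a shared replicate number marks an animal, so the numbers were not taken as pairs. Deviations of same-numbered libraries from their group means had r of -0.0015 and -0.45 across genes, which are not independent. The deviations of the 2 small libraries mirror each other, so these r cannot decide whether the libraries are paired.

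Receptors whose groups did not overlap numbered 4 with median-of-ratios scaling, PRLR among them. Of all genes tested, which leave out PRLR, 29.6% did not overlap. With libraries left out such receptors numbered 2 to 4, and 4 without small follicle replicate 2. There small follicle replicate 1 stands alone and groups fail to overlap more easily. The share over all genes was not worked out with libraries left out, so these counts are a description. The differences in log2 ratio kept their direction at 0.32 to 0.45 for PGRMC1 over PGRMC2 and -1.96 to -0.35 for ESR2 over ESR1. That of PRLR over GHR was 0.20 to 0.63 with 1 FPKM added, and its sign rests on that addition, since without it the libraries with a ratio averaged lower in large follicles. The order of levels held in 0 libraries by fragments without length scaling, where ESR1 exceeded PGRMC2. Depth limits ESR2 and PRLR, with at most 24 and 8 fragments in a library.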
